A study of Mus musculus with 2 samples.

Results

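The enzymes described here disarm reactive oxygen species or hold the cell's reducing power, and they were measured in renal glomeruli, where blood is filtered. The group comprises Sod1, Sod2, Sod3, Cat, Gpx1, Gpx3, Gpx4, Hmox1, Nqo1 and Gclc. It was taken as every probe set, a set of short oligonucleotides for 1 transcript, whose platform gene symbol is exactly one of these 10 names. The rule found 21 probe sets among 45037 that were not controls, and each of the 10 genes had at least 1. The symbols are those of the platform annotation of 2016. The choice used no measured value, although earlier results of these data were known when the group was proposed.

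Glomeruli were dissected from male KK/Ta mice aged 20 weeks, an inbred strain that develops obesity and diabetes. One group had received a high-fat diet (HFD) and the other a normal fat chow diet (Chow). The series holds 1 array for each, an Affymetrix Mouse Genome 430 2.0 array hybridised with labelled total RNA. The design text mentions 3 mice, and pooling of their RNA is not stated.

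Superoxide dismutases turn superoxide into hydrogen peroxide: Sod1 in the cytosol, Sod2 in mitochondria and Sod3 outside the cell. Catalase (Cat) breaks hydrogen peroxide down in peroxisomes, and glutathione peroxidases reduce peroxides with glutathione, whose synthesis begins with the enzyme that Gclc helps to form. Hmox1 degrades haem and Nqo1 reduces quinones, and these inducible enzymes, with Gclc, are textbook targets of the transcription factor NRF2, which binds antioxidant response elements. In the kidney, proximal tubule cells are a known source of the secreted peroxidase Gpx3.

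Promoter sequence from RefSeq (GRCm38.p6), the 250 bases before an annotated start, was at hand for 7 of the 10 genes in 10 windows. Sod3, Hmox1 and Gclc had no entry. Each window was searched on both strands for the core of the antioxidant response element, spelled TGACNNNGC, and for the GC box, spelled GGGCGG. The motifs can share bases, and neighbouring GC boxes do so in the Sod1 window, but no element core overlapped a GC box. Shown 5′ to 3′ in the sense of the gene are Sod1, which held the 1 element core among the 10 windows, Gpx3, whose probe set had the highest signal percentile of the group, and Nqo1, whose only probe set lay at the floor. Capitals mark both kinds of match.
Sod1, chr16:90220512-90220761, plus strand: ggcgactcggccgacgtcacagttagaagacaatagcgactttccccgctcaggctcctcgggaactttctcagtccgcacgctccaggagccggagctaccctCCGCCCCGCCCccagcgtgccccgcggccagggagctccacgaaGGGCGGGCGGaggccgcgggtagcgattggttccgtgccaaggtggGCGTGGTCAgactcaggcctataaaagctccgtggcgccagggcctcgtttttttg
Gpx3, chr11:54902604-54902853, plus strand: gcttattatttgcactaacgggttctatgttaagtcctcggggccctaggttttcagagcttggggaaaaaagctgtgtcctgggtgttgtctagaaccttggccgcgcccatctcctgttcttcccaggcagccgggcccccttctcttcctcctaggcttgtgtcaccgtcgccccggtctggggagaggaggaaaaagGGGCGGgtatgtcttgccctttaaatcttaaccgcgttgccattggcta
Nqo1, chr8:107403206-107403455, minus strand: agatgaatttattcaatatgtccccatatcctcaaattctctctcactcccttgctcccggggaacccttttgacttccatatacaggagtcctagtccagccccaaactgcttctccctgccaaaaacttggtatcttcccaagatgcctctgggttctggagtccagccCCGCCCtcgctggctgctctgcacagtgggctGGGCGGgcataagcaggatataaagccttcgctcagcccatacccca
In the Sod1 window the element core lay on the opposite strand, with its first letter as printed 56 bases before the start, as GCGTGGTCA. The other capitals in the 3 windows are GC boxes. The element core was present in 1 of the 10 windows of the group and in 10.2% of 32851 mouse windows. Of Hmox1, Nqo1 and Gclc, only Nqo1 had a window, and no base outside the 250 was searched. The missing core in that window therefore says nothing about elements farther from the start. Alternative starts of Gpx4 make up 4 of the 10 windows. The GC box was present in 8 of the 10 windows, or 6 of the 7 genes, and in 32.7% of all windows. Overlapping Gpx4 windows hold the same GC boxes and are each counted. A match is a run of letters, and the arrays measured no promoter.

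The diets were compared within each probe set. Probes differ in how strongly they bind their target, so a signal's percentile on its array describes that probe set and does not rank transcripts by amount. The difference between the diets is HFD minus Chow on the log2 scale, after each array was centred on its median. Signals under the array's 50th percentile, 42.3 for HFD and 44.9 for Chow, were raised to that floor. A single array for each diet leaves no replicate spread and no test, so a difference was called by size alone, at 2-fold. In place of a replicate spread stands the scatter of differences among the 1000 probe sets of most similar signal, a scaled median absolute deviation that holds noise and real differences together.

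None of the antioxidant probe sets above the floor on at least 1 array differed by 2-fold, and most were close to equal on the 2 diets. Among all 23419 probe sets above the floor on at least 1 array, 0.615% stood higher in HFD by that much and 0.295% lower. A count of 0 among so few is near that background. Of the 21, 18 were above the floor on both arrays, 1 on 1 array and 2 on neither, and these 2 carry no difference. The 18 ran from -0.30 to 0.68 log2 units with a median of 0.085, against 0.041 for all 21617 probe sets above the floor on both arrays. The largest of these differences was that of extracellular superoxide dismutase, Sod3, and it rested on a low signal.

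Of the 18, 17 lay within 1.5-fold, and so did 94.4% of all probe sets above the floor on both arrays. After centring, 12 were higher and 6 lower in HFD, and 57.1% of all probe sets above the floor on both arrays were higher. In the deposited values 9 were higher and 9 lower, since centring added 0.083 to each difference. The direction of small differences therefore depends on the scaling. The control probe sets for Gapdh differed by 0.20 to 0.28 and those for beta-actin by 0.14 to 0.28, as large as most differences given below. Measured from the median of like-signal probe sets, 17 of the 18 lay within 2 scatter units and 10 within 1. The matching shares over all probe sets were not computed.

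**Figure D1:**
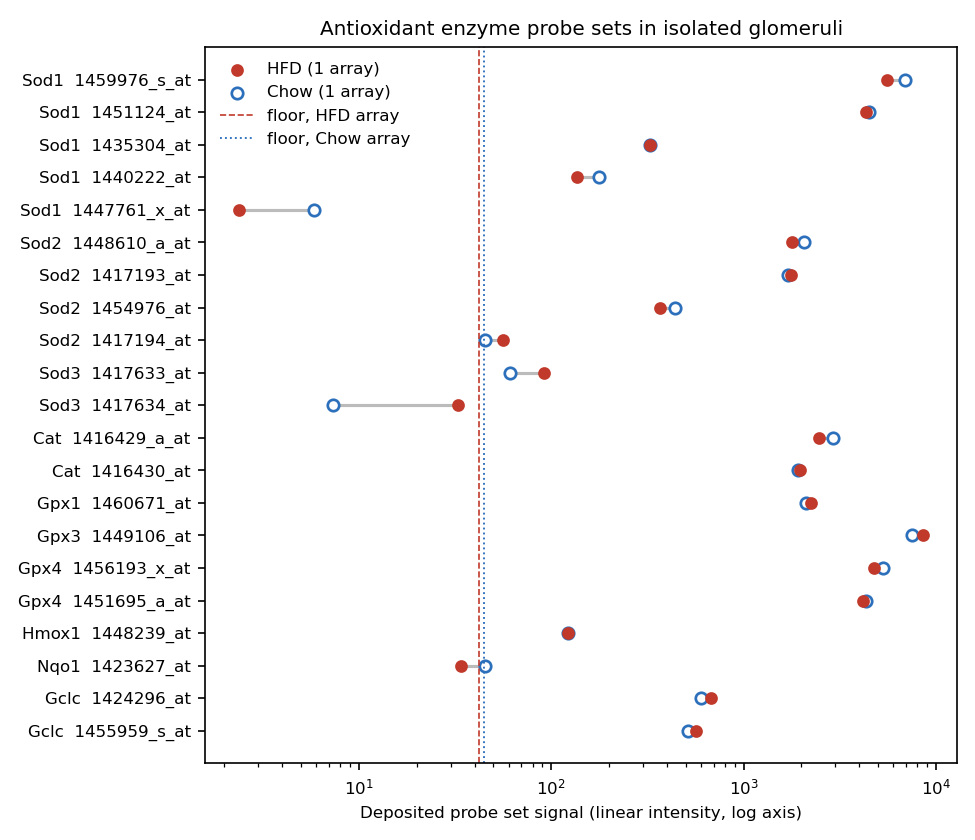
Deposited signal (linear intensity on a log axis) of the 21 probe sets on the HFD array (filled) and the Chow array (open), joined by a line, with each array's floor as a vertical line. Most pairs nearly coincide; the widest gaps are those of the second Sod3 and the fifth Sod1 probe set, both under the floor.

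Cytosolic Sod1 had bright probe sets whose differences were not alike. Probe set 1459976_s_at had a signal of 5541 in HFD and 6898 in Chow, a difference of -0.23, and 1451124_at had 4330 in HFD and 4506 in Chow, a difference of 0.026. The first stood at -2.23 scatter units from the median of probe sets of like signal, the one probe set of the 18 beyond 2 units, and its name ending marks probes that may match several transcripts. Of the dimmer ones, 1435304_at had 326 in HFD and 328 in Chow (0.077), and 1440222_at had 136 in HFD and 178 in Chow (-0.30). The 4 Sod1 differences thus ran from -0.30 to 0.077 and share no direction. Probe set 1447761_x_at, at 2.39 in HFD and 5.82 in Chow, was under the floor and has no order.

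Mitochondrial Sod2 was likewise split by probe set. The brightest, 1448610_a_at, had 1782 in HFD and 2062 in Chow (-0.13), whereas 1417193_at had 1754 in HFD and 1695 in Chow (0.13). These are of nearly equal size and opposite sign, so the arrays give no single direction for Sod2. Probe set 1454976_at had 367 in HFD and 439 in Chow (-0.18), and 1417194_at, just over the floor, 55.8 in HFD and 45.3 in Chow (0.39). That last difference was within the scatter of 0.43 at this signal.

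Extracellular Sod3, which acts in vessel walls and matrix, gave the largest difference of the group at a low signal. Probe set 1417633_at had 91.9 in HFD and 60.8 in Chow, 1.60-fold higher in HFD (0.68 log2 units), where like-signal probe sets scattered by 0.38. It was the 1 antioxidant probe set past 1.5-fold, a size that 3.66% of all probe sets above the floor reached in the higher direction. The second, 1417634_at, had 32.9 in HFD and 7.37 in Chow. Both values are under the floor and have no order, so the Sod3 difference rests on 1 probe set.

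Catalase showed the same split as Sod2. Probe set 1416429_a_at had 2465 in HFD and 2929 in Chow (-0.17), and 1416430_at had 1966 in HFD and 1930 in Chow (0.11). They stood at -1.26 and 0.29 scatter units from the median of probe sets of like signal, so the arrays give no single direction for Cat. Gaps between probe sets of 1 gene are common. Over 13298 same-gene pairs above the floor on both arrays the median gap was 0.19 and the 75th percentile 0.35. The gap for Cat was 0.28, and the largest among the 4 probe sets each of Sod1 and Sod2 were 0.38 and 0.56.

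**Figure D2:**
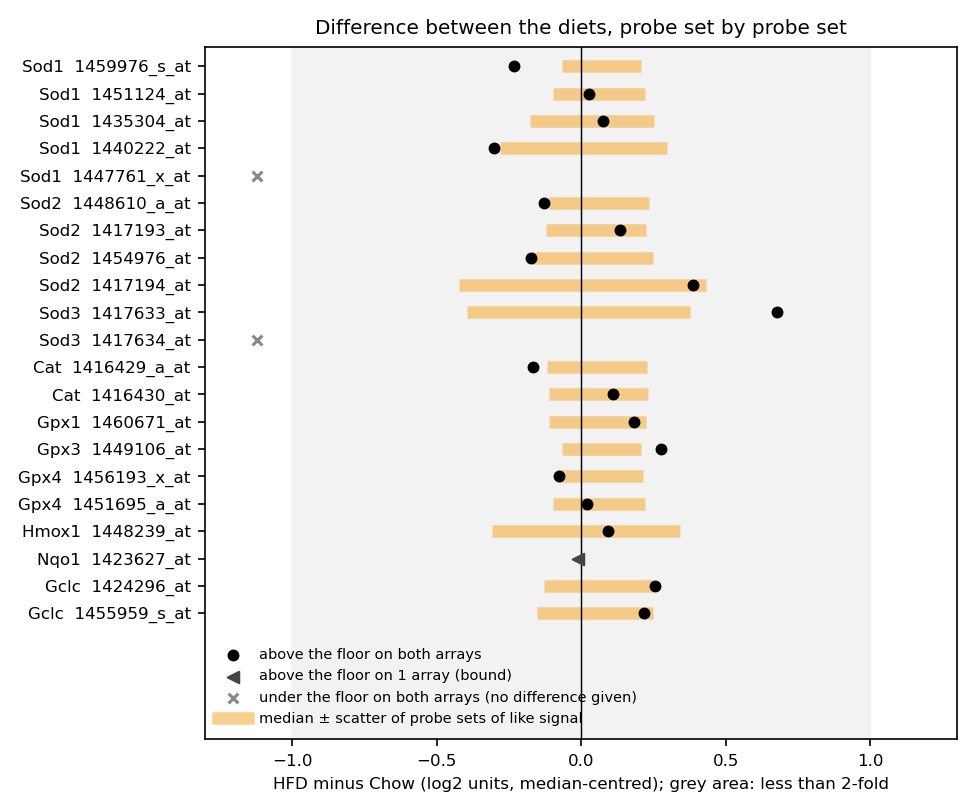
HFD minus Chow difference (log2 units, after centring) of each probe set, with the median ± scatter of the 1000 probe sets of like signal as a bar and the region under 2-fold in grey. Sod3 at 0.68 and the first Sod1 probe set at -0.23 stand farthest outside their bars, and every plotted difference is inside the grey region; crosses at the left edge carry no difference.

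The glutathione peroxidases of the group were bright on both arrays and differed by at most 1.21-fold, the value of Gpx3 given below. Gpx1, the cytosolic peroxidase, had 2250 in HFD and 2102 in Chow (0.18). Gpx4, which reduces lipid peroxides in membranes, had 4740 in HFD and 5301 in Chow with 1456193_x_at (-0.078), and 4162 in HFD and 4351 in Chow with 1451695_a_at (0.019). Both Gpx4 differences were smaller than the scatter at their signals.

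The Gpx3 signal lay above that of 99.6% of probe sets in HFD and 99.4% in Chow. Its signal was 8552 in HFD and 7478 in Chow, a difference of 0.28 or 1.21-fold, which is 1.51 scatter units above probe sets of like signal. Markers of the proximal tubule, where Gpx3 is made, were higher in the same array: 9 of 10 were higher, with a median difference of 0.62 and a summed signal of 14379 in HFD and 10433 in Chow. None of these 10 markers was under the floor. In such bulk RNA more cells of a type and more RNA per cell cannot be told apart. The part of these markers in the Gpx3 value was not tested.

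Of the NRF2 targets, Gclc was slightly higher with both probe sets, Hmox1 was level, and Nqo1 lay at the floor. Gclc had 681 in HFD and 604 in Chow with 1424296_at (0.26), and 567 in HFD and 517 in Chow with 1455959_s_at (0.22). These probe sets differed from each other by 0.039, the closest agreement among the 5 genes of the group with several probe sets above the floor on both arrays. The values lie at 1.05 and 0.84 scatter units, and they are of the size of the Gapdh control differences.

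Hmox1, which is induced by haem and oxidants and is made by many macrophages, had 123 in HFD and 122 in Chow (0.093). Macrophage markers were higher in HFD on the same arrays. Of 8 markers, 7 were above the floor and all 7 were higher. Past 2-fold were 6 of them. The list had a median of 1.25 and a summed signal of 3465 in HFD and 1527 in Chow. Of this list, Itgam was under the floor on both arrays. The part of these markers in the Hmox1 value was not tested. Nqo1 had 33.8 in HFD, under the floor, and 45.2 in Chow, barely over it, which bounds the difference at -0.010 and gives no direction. Its window is the third sequence above.

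**Figure D3:**
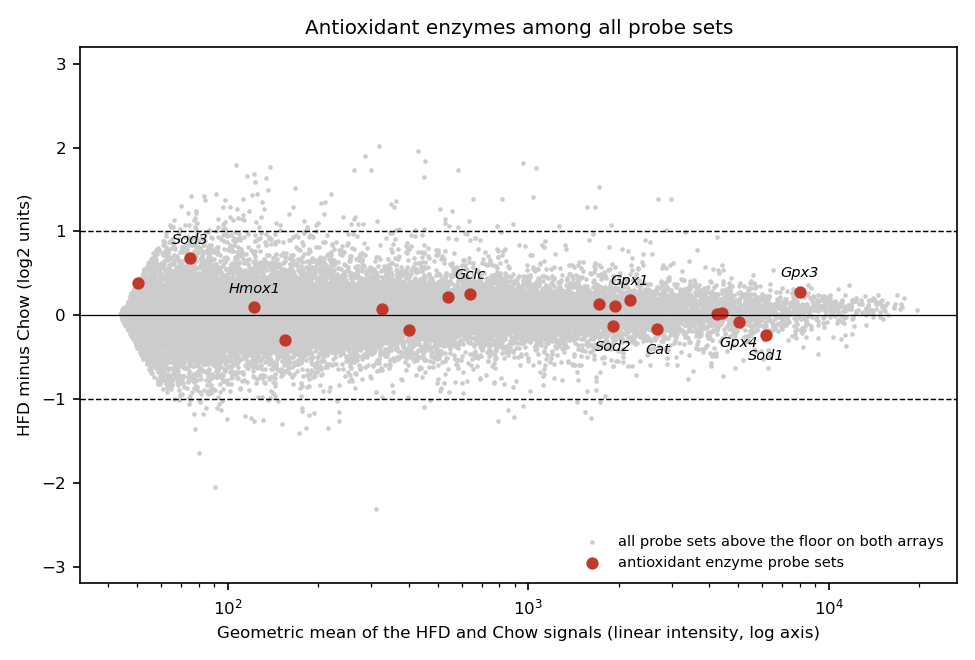
HFD minus Chow difference (log2 units) against the geometric mean of both signals (linear intensity, log axis) for all 21617 probe sets above the floor on both arrays (grey) and the 18 of antioxidant enzymes (red, the brightest of each gene named). Dashed lines mark 2-fold, and all 18 red points lie between them.

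Taking each gene by its brightest probe set, 5 of the 10 genes were higher and 5 lower in HFD, counting Nqo1 by its bound. The median was 0.041, against 0.064 over 11360 genes above the floor. It lies between the middle values, the Nqo1 bound of -0.010 and Hmox1 at 0.093, and so rests partly on a bound. With no centring the median of the 10 was -0.042, while the median over all genes was not computed. All probe sets above the floor, a different background, had a median of 0.038 after centring and -0.045 without it. The call by size was the same: 0 of 10 genes passed 2-fold, and 0.889% of all genes did.

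The wider antioxidant system was also close to level. It was described with 55 further genes, of which 49 had a single-gene probe set and 46 were above the floor. The list was not picked for how its genes moved. Of the 46, 37 were higher in HFD and 9 lower, 0 of them by 2-fold, with a median of 0.096. Over all genes above the floor 62.2% were higher, so the even split is no guide. Without centring the list's median was 0.012. The median of all probe sets above the floor then fell as well, from 0.038 to -0.045. After centring the list's range was -0.27 to 0.47.

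Among regulators, Nfe2l2, which encodes NRF2, had 2970 in HFD and 2899 in Chow (0.12), and Keap1, its cytoplasmic inhibitor, had 611 in HFD and 608 in Chow (0.092), with a second probe set at 0.34. Gclm, the partner subunit of Gclc, had 603 in HFD and 563 in Chow (0.18), with a second probe set at 0.47. Taking each gene by its brightest probe set, and leaving out genes below either floor, the largest positive differences were those of Gsta2 (0.47), a glutathione transferase, Txn2 (0.42), the mitochondrial thioredoxin, Mgst1 (0.42), a microsomal transferase, and Glrx (0.33), a glutaredoxin. Txn2 alone of these had further probe sets above the floor, and its 3 ran from 0.42 to 0.67. Dimmer probe sets of other genes reached further, up to 0.85 for Txnrd3, a thioredoxin reductase, and 0.60 for Gsr, glutathione reductase, whose brightest stood at 0.18 and 0.032.

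By the same measure, the largest negative differences were those of Blvrb (-0.27), a biliverdin reductase, Txn1 (-0.22), the cytosolic thioredoxin, Nqo2 (-0.20), a relative of Nqo1, and Mafk (-0.17), a partner of NRF2 on DNA. A second probe set of Txn1 stood at 0.27, and those of Nqo2 ran from -0.38 to 0.10, so neither has a single direction. A dimmer probe set of Prdx4, a peroxiredoxin, also reached -0.38, whereas its brightest stood at 0.051. By subgroup, the medians were 0.25 for 3 other glutathione peroxidases, 0.14 for 6 genes of glutathione synthesis and recycling, 0.11 for 12 of the thioredoxin and peroxiredoxin system, 0.12 for 12 glutathione S-transferases, 0.094 for 5 of haem, quinone and iron handling and 0.092 for 7 of NRF2 regulation. Ccs, the copper chaperone of Sod1, stood at 0.096.

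Markers of glomerular and other cells were read on both arrays. All 8 podocyte markers with a single-gene probe set were above the floor, with a summed signal of 55319 in HFD and 59877 in Chow and a median difference of -0.049. All 10 proximal tubule and all 8 later nephron markers were above the floor too, so passing it does not tell glomerulus from tubule. Endothelial markers had a median of 0.18 and mesangial markers of -0.016. Of 3 red cell markers, Hba-a2 stood at -0.25, Alas2, above the floor in HFD only, at a bound of 0.94, and Hba-a1 was under the floor. Of the markers for the later nephron (loop, distal tubule, collecting duct), 7 of 8 were higher, with a median of 0.68 and a summed signal of 8840 in HFD and 6274 in Chow. Antioxidant enzymes are made in tubule, leukocyte and glomerular cells alike. The part of these markers in the antioxidant values was not tested.

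**Figure D4:**
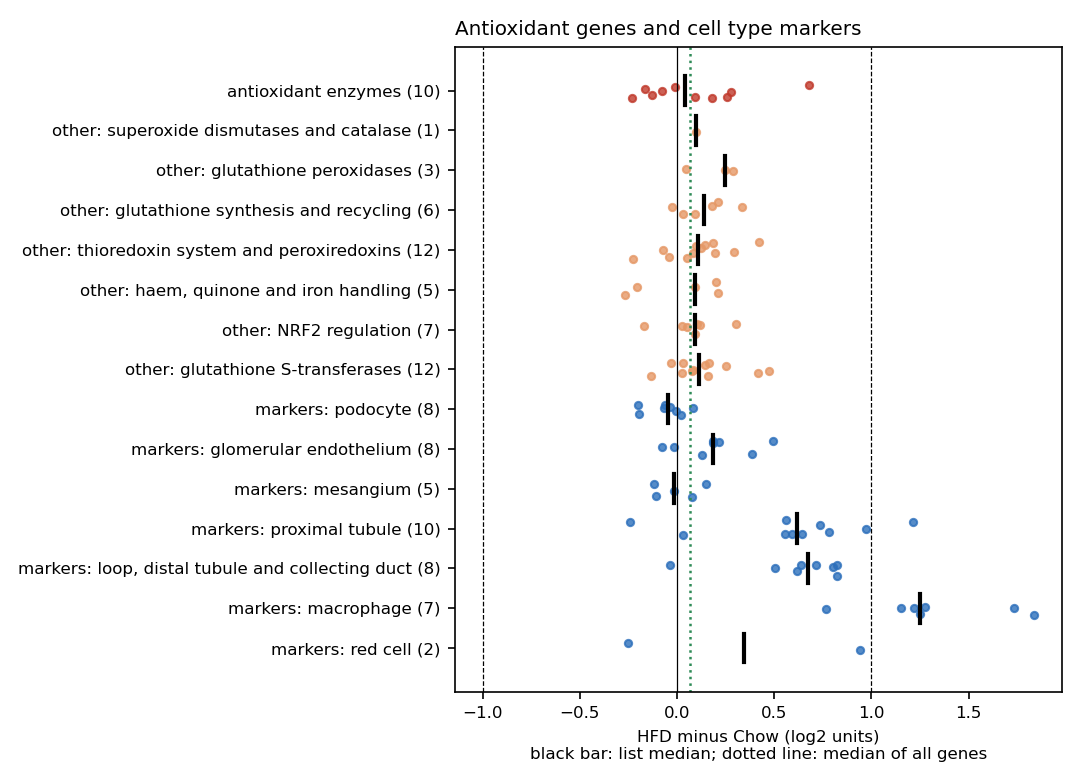
HFD minus Chow difference (log2 units) of each gene above the floor, by its brightest probe set, for the 10 antioxidant enzymes (red), the other antioxidant genes (orange) and cell markers (blue), with list medians as bars, 2-fold as dashed lines and the number of genes in parentheses. Antioxidant medians lie between 0.041 and 0.25, whereas those of the 2 tubule lists are 0.62 and 0.68 and that of macrophage markers is 1.25.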

How the data were processed

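Glomerular RNA was extracted on Qiagen columns and labelled in 2 cycles of amplification, per the labels' protocols, and hybridised to 1 array per diet. The authors deposited linear probe set intensity values. The design text names GeneSpring 7.3.1; probe summary and array scaling are not stated. Intensities ran from 0.0534 to 19489 in HFD and from 0.0539 to 19853 in Chow, and trimmed means were 292 and 300. The number of arrays limits the precision.

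Of 45101 probe sets, 64 controls were left out. Log2 values were centred per array on the median and floored at the 50th percentile; probe sets under the floor on both arrays were given no difference. For gene counts the brightest probe set over both arrays stood for its gene. Of the probe sets, 34945 named 1 gene, 932 several and 9160 none. All 21 members kept their symbol through the Entrez identifier in RefSeq (GRCm38.p6). Values were computed with Python 3.11.15, numpy 2.4.6 and pandas 2.3.3. The procedure was tested on simulated data with the same noise at every signal. Differences were planted only in probe sets above the floor on both arrays, so that test did not cover values at the floor. Named genes were all members, the 4 largest differences in each direction of the wider list above the floor on both arrays, and Nfe2l2, Keap1 and Gclm. Ccs, Txnrd3, Gsr, Prdx4, Gpx2, Slc7a11, Fth1 and the single markers were added with their values in view. The members, lists, floor and alternatives were chosen with earlier results of these data known.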

Additional observations from a re-analysis of the deposited data

How the results depend on the processing

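No paired analysis was possible because each diet has 1 array. The floor decides what is counted. The antioxidant probe sets at least 2-fold apart numbered 0, against 1 with a floor at the 30th percentile, 2 with no floor and 1 with the 25th percentile added before the log2. The probe set in each was the dim Sod3 one, 1417634_at (1.44, 2.24 and 1.41 log2 units), joined without a floor by Sod1 1447761_x_at (-1.20). At a 1.5-fold threshold the count was 1. Counts over all probe sets were 213, against 1306, 9394 and 1973 under those floor settings, 53 with a floor at the 70th percentile, 1462 at 1.5-fold and 28 at 3-fold. No centring, quantile normalization and a loess fit (span 0.3) gave 0 antioxidant probe sets and 202 to 210 in all. The median of the 10 genes was -0.042 with no centring and -0.078 over the 7 genes above the 70th percentile floor. Under these settings the medians of all probe sets above the floor, not of genes, were -0.045 and 0.049, against 0.038 in the main setting. The antioxidant median was 0.048 when a gene's probe sets were combined by their median and 0.13 over 9 genes without shared probe sets. It therefore has no settled sign. Of the 18 probe sets above the floor on both arrays, 3 changed sign among 8 settings: 2 of Sod1 and 1 of Gpx4, each within 0.08 of 0. The sizes set no limit on variation between mice, which 1 array per diet does not show.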

Other observations

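The following was seen after the values were known. In 4 of the 5 antioxidant genes with several probe sets above the floor on both arrays (Sod1, Sod2, Cat and Gpx4), the brightest probe set was lower in HFD and the next brightest higher. Over the 4912 genes with several such probe sets, 17.7% showed that order of signs. The count rests on the centring: with no centring, quantile normalization or a loess fit, alternatives added after the data were seen, it was 2 of 5 (Sod2 and Cat), against 19.2% to 20.0% of all such genes. After centring, Gclc was higher with both. The brightest probe sets of these 4 genes have names ending in _s_at, _a_at or _x_at, which mark probes shared between transcripts. Over all probe sets above the floor on both arrays the median difference was 0.044 for names ending in _s_at (1534), 0.068 for _a_at (3091) and 0.019 for _x_at (1444), against 0.036 for the others (15548). For Gpx4 the second probe set is shared too.

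Gpx2, the gastrointestinal glutathione peroxidase, was under the floor on both arrays, at 4.24 in HFD and 32.2 in Chow. Slc7a11, the cystine transporter that feeds glutathione synthesis, was under it at 4.46 in HFD and 1.65 in Chow. Fth1, the ferritin heavy chain that stores iron, had 14653 in HFD and 13437 in Chow, a difference of 0.21.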
